A study of Mus musculus with 4 samples.

Results

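The NuRD (nucleosome remodeling and deacetylase) complex subunits other than the CHD ATPases were followed as transcripts in primary mouse neural stem/progenitor cells (NSCs). The 10 genes were chosen by name, as the subunits Hdac1, Hdac2, Mta1, Mta2, Mta3, Mbd3, Rbbp4, Rbbp7, Gatad2a and Gatad2b, and each had 1 row among the 18169 rows of the deposited table. Values are TPM, a level per transcript length that adds to the same total in each sample, so that levels of different genes can be set side by side. There were 2 +/+ and 2 Chd5-/- samples, numbered replicate 1 and replicate 2 within each genotype. All 4 were C57BL/6 NSC cultures of the periventricular region, each from 1 newborn, kept in medium with epidermal growth factor and fibroblast growth factor 2. The Chd5-/- cells came from a Chd5-deficient mouse line. The labels give no further detail of the allele, and the +/+ cells were their wild-type counterparts. The growth protocol gives postnatal day 1 for every culture, whereas the age entries differ, with days 1 and 2 in +/+ and days 3 and 4 in Chd5-/- cultures, so that by these entries age and genotype cannot be told apart.

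NuRD joins a CHD-family ATPase, which moves nucleosomes, to the histone deacetylases HDAC1 and HDAC2. The MTA proteins are the scaffold that holds and activates the deacetylases and carries the histone chaperones RBBP4 and RBBP7, WD40 proteins that bind histone H3 and H4 and also serve in other chromatin complexes. MBD3, or in its place MBD2, links this core to a GATAD2 protein (GATAD2A or GATAD2B), which in turn holds the CHD ATPase. CHD3, CHD4 and CHD5 can each fill the ATPase position, and in the developing cortex the complex is known for its part in the passage from progenitor to neuron. Loss of CHD5 therefore removes 1 of the alternative motors of a complex whose other subunits are the subject here.

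Promoters are shown for 4 members, the pair with the highest genotype differences (Mbd3 and Gatad2b) and the pair with the lowest (Hdac2 and Rbbp7), to set their base composition beside their values. Their promoter windows, from 250 bases before to 50 bases after a transcription start in RefSeq for GRCm38.p6, are shown 5′ to 3′ on the strand of the gene. The motifs searched on both strands were the CCAAT box (letters CCAAT), the GC box (letters GGGCGG), the ETS motif (letters CCGGAAG) and the TATA box (letters TATAAA). Capitals mark the matches, none of which overlap in these windows. The windows are chr10:80399482-80399781 (minus strand) for Mbd3, chr3:90292931-90293230 (plus strand) for Gatad2b, chr10:36974294-36974593 (plus strand) for Hdac2 and chrX:162760122-162760421 (plus strand) for Rbbp7.
Mbd3 promoter: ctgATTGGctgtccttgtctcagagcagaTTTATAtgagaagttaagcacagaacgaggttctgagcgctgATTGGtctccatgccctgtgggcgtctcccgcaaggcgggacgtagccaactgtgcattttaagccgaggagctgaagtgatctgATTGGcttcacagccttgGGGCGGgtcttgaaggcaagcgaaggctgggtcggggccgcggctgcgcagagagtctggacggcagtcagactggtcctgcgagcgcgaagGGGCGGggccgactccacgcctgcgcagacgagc
Gatad2b promoter: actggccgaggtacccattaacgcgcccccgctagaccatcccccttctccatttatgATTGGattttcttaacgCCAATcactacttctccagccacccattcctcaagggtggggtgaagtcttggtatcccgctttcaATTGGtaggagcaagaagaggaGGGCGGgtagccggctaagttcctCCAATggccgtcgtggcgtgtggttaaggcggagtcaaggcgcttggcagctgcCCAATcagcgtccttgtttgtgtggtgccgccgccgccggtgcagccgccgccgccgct
Hdac2 promoter: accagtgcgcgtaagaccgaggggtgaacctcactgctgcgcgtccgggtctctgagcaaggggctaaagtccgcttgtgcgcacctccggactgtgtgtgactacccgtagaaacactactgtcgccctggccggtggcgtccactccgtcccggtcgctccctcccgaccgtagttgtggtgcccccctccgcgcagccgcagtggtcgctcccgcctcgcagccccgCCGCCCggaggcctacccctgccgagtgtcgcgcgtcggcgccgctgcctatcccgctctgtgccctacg
Rbbp7 promoter: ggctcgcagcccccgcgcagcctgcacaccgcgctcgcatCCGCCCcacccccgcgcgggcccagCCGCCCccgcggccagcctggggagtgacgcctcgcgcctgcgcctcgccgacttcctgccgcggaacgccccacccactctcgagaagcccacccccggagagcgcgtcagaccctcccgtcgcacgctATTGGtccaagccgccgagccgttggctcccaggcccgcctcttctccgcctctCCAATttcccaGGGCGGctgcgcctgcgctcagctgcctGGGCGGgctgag

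The Mbd3 window held 3 CCAAT, 2 GGGCGG and 1 TATAAA match. The Gatad2b window held 5 CCAAT matches and 1 GGGCGG match. The Hdac2 window had a single GGGCGG match and the Rbbp7 window had 4, with 2 CCAAT matches in the latter. Gatad2b has a second window, with 1 CCAAT match, 1 GGGCGG match, 16 CG dinucleotides and a GC content of 54.3%, and the one shown is the first by coordinate. Among all 32851 promoter windows, CCAAT was present in 37.4%, GGGCGG in 35.7%, TATAAA in 13.6% and CCGGAAG, absent from these 4, in 8.86%. GC content was 60.7% in the Mbd3 window and 59.3% in that of Gatad2b, below the 69.7% of Hdac2 and the 75.7% of Rbbp7. CG dinucleotides numbered 22 in each of the first pair and 36 and 38 in the second, against a median of 7 over all windows. Other members did not keep to this contrast. Mta1, also higher in Chd5-/- NSCs, had the highest GC content of the members' windows (81.0%, 50 CG dinucleotides). GC content was 69.7% and 64.0% in the Gatad2a windows, 61.7% for Mta2 and 68.7% for Rbbp4. Windows were found for 8 of the 10 genes (10 windows, since Gatad2a and Gatad2b have a pair each), all 10 with GGGCGG, and none was given for Hdac1 and Mta3. The transcribed end was found in an annotated transcript of the gene for 8 of these windows. It was not found for the Rbbp7 window or for the Gatad2a window of 69.7% GC. A match is a stretch of letters in this window and says nothing about binding.

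As a check of the labels, Chd5 itself was at 0.39 and 0.37 TPM in +/+ NSCs and at 0.06 and 0.04 TPM in Chd5-/- NSCs. Chd5 was thus near the floor in +/+ NSCs as well, and its mean was below the 1 TPM needed for testing. Of the NSC markers fixed for this work, all 7 had a row and summed to 9659 and 7997 TPM in +/+ and to 3802 and 6497 TPM in Chd5-/- NSCs. Vim and Fabp7 were abundant throughout. However, 4 of the 7 (Vim, Fabp7, Sox2 and Slc1a3) were lower without overlap in Chd5-/- NSCs, against 13.0% of all rows. Nes, Pax6 and Prom1 overlapped between genotypes. Prom1 was at 45.27 TPM in Chd5-/- replicate 1 and at most 4.15 TPM in each other sample. Microglial markers (2 of 6 analysed here) reached at most 0.62 TPM in sum and endothelial and pericyte markers (4 of 6) at most 1.57 TPM. The 7 mesenchymal markers summed to 5.09 and 8.91 TPM in +/+, 12.5 TPM in Chd5-/- replicate 2 and 176 TPM in Chd5-/- replicate 1, mostly Fn1. In Chd5-/- replicate 1, Col3a1, Dcn and Acta2 were at 7.41, 4.17 and 9.55 TPM, and in each other sample at most 0.3 TPM. Col1a2 and Lum were also highest there, at 0.20 and 0.37 TPM. Only Col1a1 was at 0 in all but Chd5-/- replicate 2 (0.07 TPM). Astrocyte markers (5 of 5) summed to 372 and 454 TPM in +/+ and to 133 and 634 TPM in Chd5-/- replicates 1 and 2, oligodendrocyte lineage markers (7 of 8) to between 504 and 928 TPM in all samples, and neuronal markers (7 of 7, nearly all of it Map2) to between 372 and 798 TPM. The rank correlation of TPM over the rows tested was 0.904 between the 2 Chd5-/- samples and 0.974 between the 2 +/+ samples, and from 0.904 to 0.925 across genotypes, so that the Chd5-/- samples were no more alike than samples of different genotype. The part of any of these in the differences below was not tested, and in bulk RNA fewer cells of a type and less RNA per cell cannot be told apart.

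The 10 genes together held 0.0916% and 0.0820% of all TPM in +/+ NSCs and 0.0979% and 0.0809% in Chd5-/- NSCs, and these ranges overlap. Their levels spanned more than an order of magnitude. In +/+ NSCs the histone chaperone and deacetylase transcripts were the most abundant, with Rbbp7 first, then Hdac2, then Rbbp4, and their ranges did not overlap. Hdac1 and Mta2 followed with overlapping ranges, then Gatad2b and Mta1, again overlapping. Gatad2a, Mta3 and Mbd3 were last, and each of them overlapped with its neighbor. In Chd5-/- NSCs the first 6 places were held in the order Rbbp7, Hdac2, Rbbp4, Hdac1, Mta2 and Gatad2b, and of neighbors in this order only Rbbp7 and Hdac2 overlapped. Mbd3 had moved from place 10 to place 7, where its range overlapped with that of Mta1, and Gatad2a was last.

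**Figure D1:**
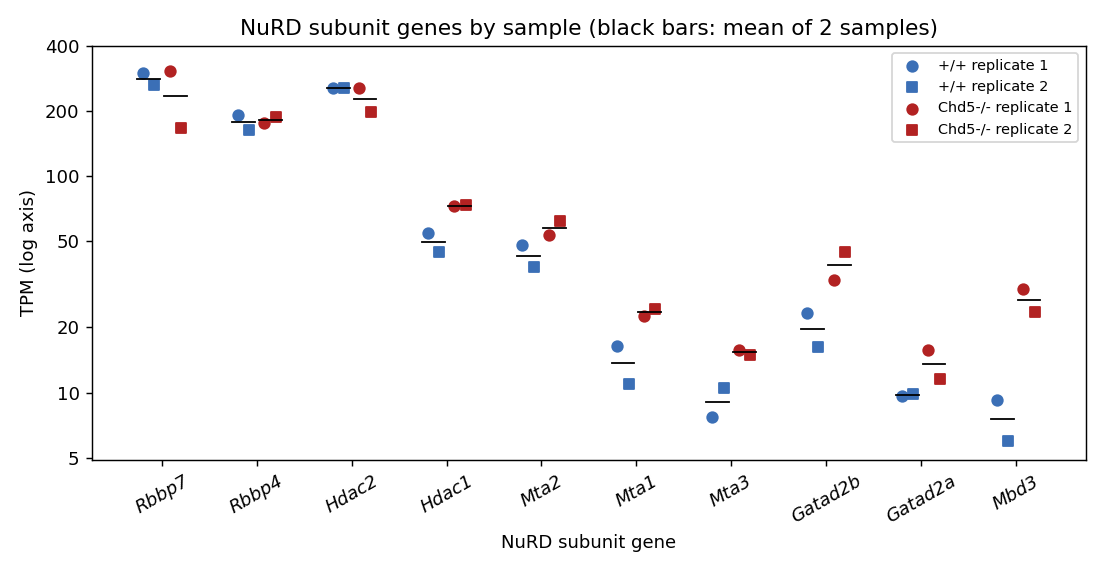
TPM of the 10 NuRD subunit genes on a log axis, with 1 point per sample (blue, +/+; red, Chd5-/-; circles, replicate 1; squares, replicate 2) and black bars at the genotype means. Both red points lie above both blue points for Hdac1, Mta1, Mta2, Mta3, Gatad2a, Gatad2b and Mbd3, while the abundant Rbbp7, Rbbp4 and Hdac2 show no such step.

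To determine whether loss of Chd5 went with a different supply of the other subunits, limma was fitted to log2(TPM + 1) of 12576 rows whose mean reached 1 TPM, with Benjamini-Hochberg adjustment over all of them. The 10 members were all among these rows. With limma, 0 of 10 members passed an adjusted p-value of 0.05, where 0.0557% of all rows did. At an unadjusted p-value under 0.05, 4 members (Mbd3, Gatad2b, Mta1 and Mta3) were higher in Chd5-/- NSCs and 0 were lower, against 21.9% and 2.27% of all rows. This lopsided split over all rows (2748 higher and 285 lower) belonged to the values as deposited, and was 1509 and 1311 with median-of-ratios factors, 1103 and 1024 with quantile normalization and 599 and 685 without trends in GC content and length. The lower Chd5-/- value exceeded the higher +/+ value for 7 members, and the reverse held for 1, Hdac2, against 46.3% and 13.0% of all rows. The median difference of the members in log2(TPM + 1) was 0.49, and that of all rows 0.34, with 7 members above the latter. The higher values were thus shared with a large part of all rows, and within the members the differences spread from -0.32 for Rbbp7 to 1.71 for Mbd3.

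Mbd3, the methyl-CpG-binding-domain protein that bridges the deacetylase core to GATAD2, lies on chromosome 10 of GRCm38 (80392539 to 80399550, minus strand). It was at 9.22 and 5.96 TPM in +/+ NSCs and at 30.07 and 23.65 TPM in Chd5-/- NSCs. Each Chd5-/- value was more than 2 times the higher +/+ value, with means of 7.59 ± 2.31 and 26.9 ± 4.54 TPM (mean ± SD, n = 2 each), a 3.54-fold ratio of means. The difference in log2(TPM + 1) was 1.71 (standard error 0.31, limma adjusted p = 0.120), higher than in 96.3% of the rows tested. It was between 1.44 and 1.99 with each sample left out in turn, and passed the adjusted threshold only without Chd5-/- replicate 2 (adjusted p = 0.0439), a fit in which 1086 of 12576 rows passed. The adjusted p from limma was 0.0609 without Chd5-/- replicate 1, 0.373 without +/+ replicate 1 and 0.759 without +/+ replicate 2. Mbd3 was the member with the highest transcript GC content, 62.9%, and rows of similar GC content (the highest of 10 equal bins) had a median difference of 1.05.

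Mbd2, which takes the place of MBD3 in other NuRD assemblies, was at 73.31 and 73.25 TPM in +/+ NSCs and at 69.62 and 56.52 TPM in Chd5-/- NSCs. Its difference in log2(TPM + 1) was -0.22 (standard error 0.22, limma adjusted p = 0.570), no larger than its error. Mbd3 made up 11.2% and 7.52% of the sum of Mbd2 and Mbd3 in +/+ NSCs and 30.2% and 29.5% in Chd5-/- NSCs. This share, chosen after its values were seen, does not depend on scaling between samples and did not overlap between genotypes, but 2 against 2 samples allow no exact two-sided permutation p below 0.333. With trends in GC content and length removed from each sample it was 11.7% and 8.12% against 29.2% and 28.8%. The difference was then -1.13 for Mbd2 (limma adjusted p = 0.410) and 0.72 for Mbd3. With median-of-ratios factors the Mbd2 difference was -0.59 (limma adjusted p = 0.223).

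The GATAD2 proteins connect MBD2 or MBD3 to the CHD ATPase. Gatad2b (chromosome 3, 90293178 to 90363407, plus strand) was at 23.23 and 16.24 TPM in +/+ NSCs and at 33.19 and 44.51 TPM in Chd5-/- NSCs. The genotypes did not overlap, and the difference in log2(TPM + 1) was 0.95 (standard error 0.30, limma adjusted p = 0.157). Its transcript GC content of 46.2% was among the lower ones, and rows of the same bin had a median difference of 0.15. Gatad2a (chromosome 8, 69907076 to 69996384, minus strand) was at 9.68 and 9.89 TPM in +/+ NSCs and at 15.71 and 11.54 TPM in Chd5-/- NSCs, a difference of 0.42 (adjusted p = 0.396). The step for Gatad2a was smaller, and about as large as the gap between the 2 Chd5-/- samples (0.41 on the same log2 scale). Gatad2a was 29.4% and 37.8% of the GATAD2 sum in +/+ NSCs and 32.1% and 20.6% in Chd5-/- NSCs, so that the shares overlapped. With the trends in GC content and length taken out they did not, at 32.3% and 43.5% against 29.0% and 17.2%. In the annotation Gatad2b overlaps Gm45354 and Gm45477 on its own strand and 4930537H20Rik on the other, and reads may have been divided among them.

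The MTA proteins form the scaffold to which the deacetylases bind. Mta2, the most abundant of them (chromosome 19, 8941875 to 8952303, plus strand), was at 47.85 and 38.04 TPM in +/+ NSCs and at 53.32 and 62.12 TPM in Chd5-/- NSCs, a difference in log2(TPM + 1) of 0.42 (limma adjusted p = 0.335). Mta1 (chromosome 12, 113098278 to 113137206, plus strand) was at 16.39 and 11.00 TPM in +/+ NSCs and at 22.58 and 24.39 TPM in Chd5-/- NSCs, a difference of 0.76 (adjusted p = 0.196). Mta3 (chromosome 17, 83706163 to 83821516, plus strand) was at 7.70 and 10.46 TPM in +/+ NSCs and at 15.73 and 14.94 TPM in Chd5-/- NSCs, a difference of 0.71 (adjusted p = 0.206). All 3 scaffold genes were higher without overlap in Chd5-/- NSCs, as were 46.3% of all rows, and none passed the adjusted threshold. With GC and length trends removed the difference was -0.20 for Mta2, -0.14 for Mta1 and 0.15 for Mta3. Mta2 held 66.5% and 63.9% of the MTA sum in +/+ NSCs and 58.2% and 61.2% in Chd5-/- NSCs. Mta1 held 22.8% and 18.5% against 24.6% and 24.0%, and Mta3 10.7% and 17.6% against 17.2% and 14.7%. Mta2 stayed the predominant scaffold transcript in every sample. The shares of Mta2 and Mta1 did not overlap between genotypes as deposited (exact permutation p = 0.333 for each, 0.667 after Benjamini-Hochberg adjustment over 6 shares), and overlapped with GC and length trends removed.

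HDAC1 and HDAC2 are the catalytic deacetylases. Hdac2 (chromosome 10, 36974544 to 37001889, plus strand) was at 255.61 and 256.05 TPM in +/+ NSCs and at 255.32 and 199.05 TPM in Chd5-/- NSCs. It was lower without overlap only by a narrow margin, since Chd5-/- replicate 1 was at the +/+ level, and the difference in log2(TPM + 1) of -0.18 became -0.0029 without Chd5-/- replicate 2 (limma adjusted p = 0.655 with all samples). Hdac1 (chromosome 4, 129516104 to 129542713, minus strand) was at 54.68 and 44.68 TPM in +/+ NSCs and at 72.80 and 73.31 TPM in Chd5-/- NSCs, a difference of 0.55 (adjusted p = 0.214). Hdac1 thus made up 17.6% and 14.9% of the deacetylase sum in +/+ NSCs and 22.2% and 26.9% in Chd5-/- NSCs. The shares did not overlap (exact permutation p = 0.333, the smallest possible), but overlapped once GC and length trends were taken out, at 19.3% and 18.1% against 18.8% and 24.2%. RefSeq lists a pseudogene, Hdac1-ps, so that reads of Hdac1 may have been divided between copies.

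RBBP4 and RBBP7 bind histones within NuRD and also belong to the SIN3, PRC2 and chromatin assembly complexes. Rbbp4 (chromosome 4, 129307100 to 129335370, minus strand) was at 192.72 and 162.86 TPM in +/+ NSCs and at 175.50 and 188.59 TPM in Chd5-/- NSCs, with overlapping genotypes and a difference in log2(TPM + 1) of 0.038 (standard error 0.22, limma adjusted p = 0.930). Rbbp7 (chromosome X, 162760402 to 162779092, plus strand) was at 299.13 and 264.33 TPM in +/+ NSCs and at 305.27 and 166.66 TPM in Chd5-/- NSCs. The Chd5-/- samples lay on either side of the +/+ range, and the sign of the difference was set by 1 sample: it was -0.32 with all samples (adjusted p = 0.594), -0.75 without Chd5-/- replicate 1 and 0.12 without Chd5-/- replicate 2. Rbbp4 was 39.2% and 38.1% of the sum of both in +/+ NSCs and 36.5% in Chd5-/- replicate 1, against 53.1% in Chd5-/- replicate 2. Each of the 2 genes overlaps a gene on the opposite strand (Sync and Gm26722 for Rbbp4, Txlng for Rbbp7), and whether counting used the strand is not given in the sources used here. Hdac1 and Rbbp4 lie 22.8 and 23.0 megabases from Chd5 on the same chromosome.

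**Figure D2:**
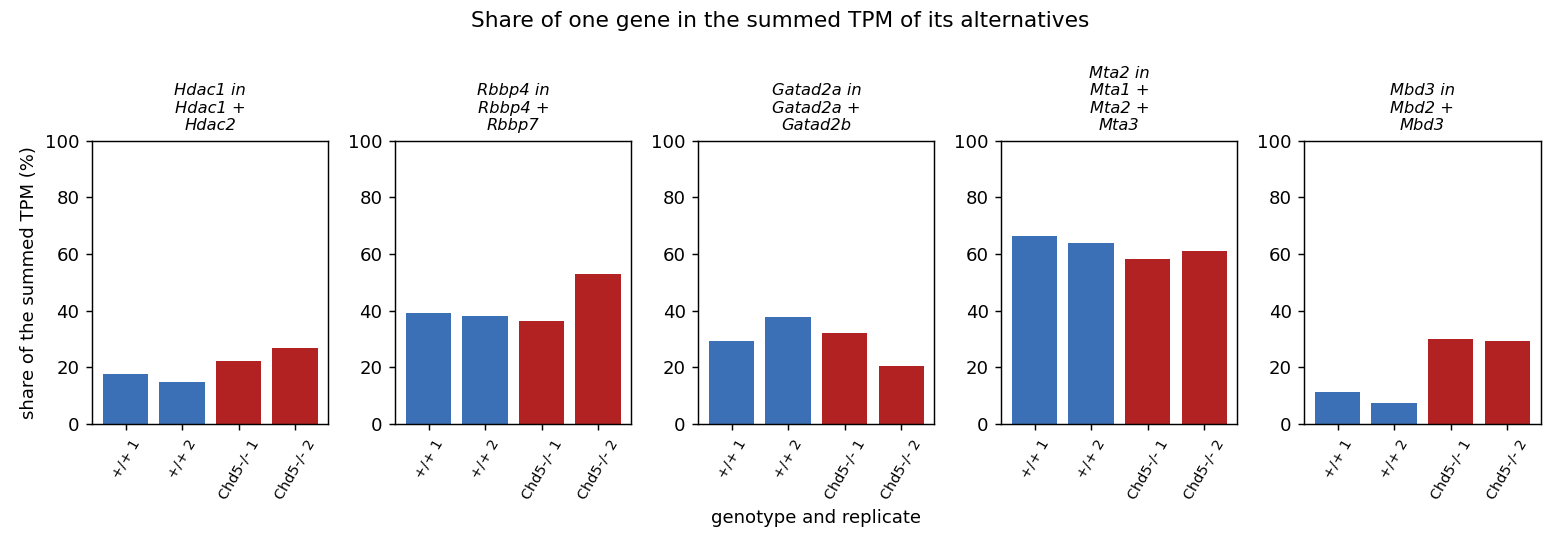
Share of Hdac1, Rbbp4, Gatad2a, Mta2 and Mbd3 in the summed TPM of the genes that can take the same place in the complex, in percent, with 1 bar per sample (blue, +/+; red, Chd5-/-). The Mbd3 share is 7.52% to 11.2% in +/+ and 29.5% to 30.2% in Chd5-/- NSCs, and the Rbbp4 share stands out only in Chd5-/- replicate 2.

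When the members were summed by place in the complex, a grouping chosen after the values were seen, the classes divided. MTA transcripts summed to 71.9 and 59.5 TPM in +/+ NSCs and to 91.6 and 101 TPM in Chd5-/- NSCs. GATAD2 transcripts summed to 32.9 and 26.1 TPM against 48.9 and 56.1 TPM. Neither of these sums overlapped between genotypes, where 46.3% of single rows over the whole table were higher in Chd5-/- NSCs without overlap. The deacetylases, at 310 and 301 TPM against 328 and 272 TPM, did overlap. The RBBP sum also overlapped, at 492 and 427 TPM against 481 and 355 TPM. MTA, MBD3 and GATAD2 transcripts together were 12.5% and 11.2% of the members' TPM in +/+ NSCs and 17.4% and 22.4% in Chd5-/- NSCs. There were 4.31 and 5.05 deacetylase transcripts per MTA transcript in +/+ NSCs and 3.58 and 2.68 in Chd5-/- NSCs. Once GC and length trends were taken out, the MTA, MBD3 and GATAD2 share was 14.2% and 14.6% in +/+ NSCs and 14.7% and 18.6% in Chd5-/- NSCs, with Chd5-/- replicate 1 next to the +/+ values. The sums of the classes and the deacetylase ratio were not computed without these trends.

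GC content of the transcript moved with these differences. Across the 10 members Spearman's rho between GC content and the difference in log2(TPM + 1) was 0.68, and across all 12103 rows with a GC value it was 0.62. Both are descriptions across genes of the same 4 libraries. Hdac2, Rbbp4 and Rbbp7, the members that were not higher without overlap in Chd5-/- NSCs, had the 3 lowest GC contents, 41.9%, 43.8% and 44.7%. Rows of the same bins had medians between -0.098 and 0.0031. Without the trends in GC and length, the difference was 0.72 for Mbd3 (limma adjusted p = 0.442) and 0.79 for Gatad2b (adjusted p = 0.451). It was 0.19 for Hdac1, 0.15 for Mta3, -0.14 for Mta1, -0.20 for Mta2 and -0.22 for Gatad2a, so that for the last 3 the direction turned. The median of the members was then 0.0076, beside -0.015 for all rows. The part of GC content in the values as deposited was not otherwise tested.

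**Figure D3:**
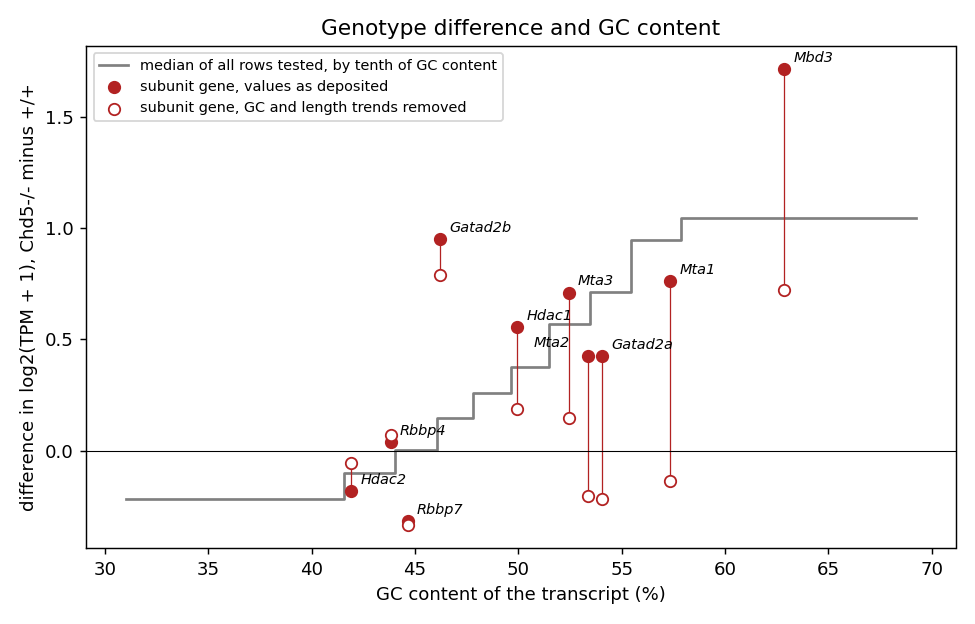
Difference between genotypes in log2(TPM + 1) (Chd5-/- minus +/+) against the GC content of the transcript in percent, for the 10 subunit genes as deposited (filled) and after removal of GC and length trends (open), joined by a line. The grey steps are the medians of all rows by bin of GC content, from -0.22 to 1.05. As deposited, Mbd3, Gatad2b, Hdac1, Mta3 and Rbbp4 lie above them, and Rbbp7, Gatad2a, Mta1, Mta2 and Hdac2 lie below.

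The differences depended on the scaling between samples. The median difference of all rows went from 0.34 as deposited to 0.0052 with median-of-ratios factors, to -0.054 with quantile normalization and to 0.13 when the 20 most abundant rows were left out of the total. The members' median went from 0.49 to 0.13, 0.22 and 0.27, and 7 members lay above the median of all rows each time. That number fell to 5 with GC and length trends removed. It was 6 with Chd5-/- replicate 1 or Chd5-/- replicate 2 left out, and 7 with either +/+ sample left out. Under the 3 scalings Mbd3 was at 1.37, 1.26 and 1.53 and Gatad2b at 0.59, 0.64 and 0.73, so that these kept their direction. Hdac1, Mta1, Mta2 and Mta3 also stayed positive. Hdac2 (-0.55, -0.28 and -0.42) and Rbbp7 (-0.69, -0.44 and -0.55) stayed negative. Rbbp4 turned negative under each of the 3 scalings (-0.33, -0.046 and -0.20), and Gatad2a turned under quantile normalization (-0.092).

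**Figure D4:**
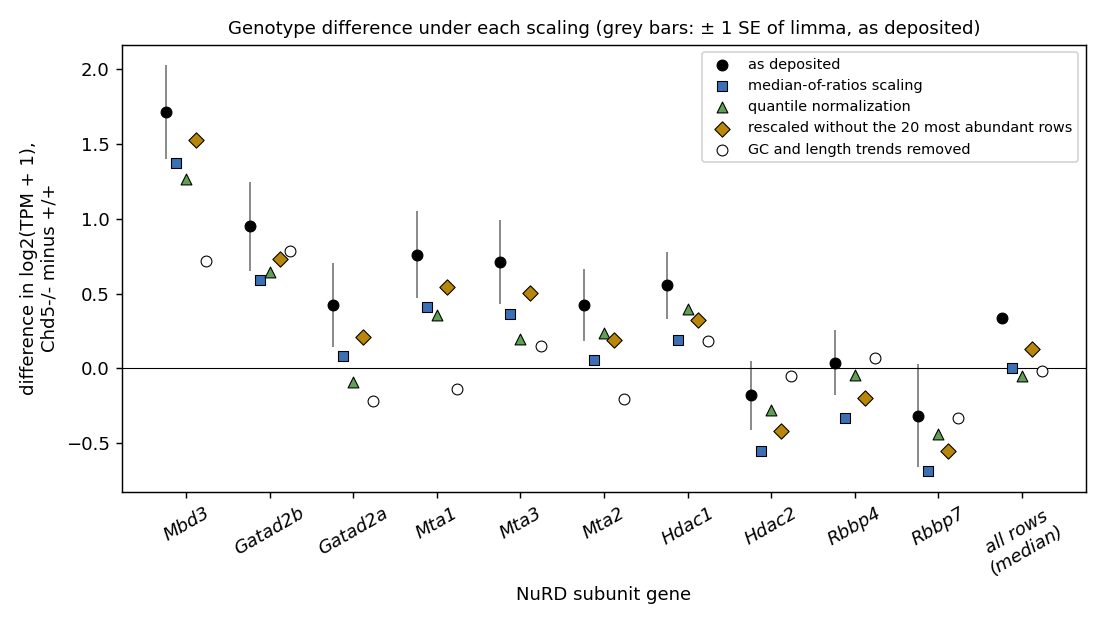
Difference between genotypes in log2(TPM + 1) for each subunit gene and for the median of all rows, as deposited (black, with the standard error of limma as a grey bar) and under 4 other treatments of the values (other symbols). Mbd3 stays between 0.72 and 1.71 and Gatad2b between 0.59 and 0.95, whereas Mta1, Mta2, Gatad2a and Rbbp4 have symbols on both sides of 0.

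Of the CHD ATPases, Chd4 was at 103.75 and 78.52 TPM in +/+ NSCs and at 138.18 and 163.82 TPM in Chd5-/- NSCs, a difference in log2(TPM + 1) of 0.73 (limma adjusted p = 0.173). The Chd4 difference was 0.36 with median-of-ratios factors, 0.62 with quantile normalization and 0.50 when rescaled without the 20 most abundant rows. It was 0.19 with GC and length trends removed. Chd3, counted in 2 rows, was at 3.25 and 1.55 TPM in +/+ and 2.61 and 10.01 TPM in Chd5-/- NSCs in the more abundant row, and Chd4 held between 92.8% and 97.7% of the CHD3, CHD4 and CHD5 transcripts in every sample. There were 0.69 and 0.76 MTA transcripts per Chd4 transcript in +/+ NSCs and 0.66 and 0.62 in Chd5-/- NSCs.

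The further partners of NuRD were read from lists, each count beside the shares over all rows (46.3% higher and 13.0% lower without overlap, 21.9% higher at an unadjusted p-value under 0.05) and each median beside 0.34 for all rows as deposited and -0.015 without trends in GC content and length. Of 10 associated or alternative subunits, 8 were higher without overlap in Chd5-/- NSCs and 1 (Mbd2) lower, and 3 had an unadjusted p-value under 0.05, with a median difference of 0.74 in log2(TPM + 1), which was 0.076 without the trends. The highest was Lrwd1, a protein of the origin recognition machinery, with 1.58 and 0.90 TPM in +/+ and 3.30 and 5.52 TPM in Chd5-/- NSCs, a difference of 1.26 (adjusted p = 0.156). Of 14 transcription factors that recruit the complex or are bound by it, 8 had enough TPM to be tested, with 1 higher and 2 lower without overlap, 0 at an unadjusted p-value under 0.05 and a median of -0.070. The sign of this median was set by 1 sample, since it was 0.53 without Chd5-/- replicate 1 and -0.38 without Chd5-/- replicate 2. Sall3, a zinc finger factor, was the highest at 0.61, and Zfpm2, a cofactor of GATA factors, the lowest at -1.01 (33.28 and 26.23 TPM against 9.44 and 21.17 TPM, adjusted p = 0.223).

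Complexes that share HDAC1, HDAC2 or the RBBP proteins with NuRD were read beside the same shares and medians of all rows. Of 15 SIN3 subunits tested, 12 were higher and 2 lower without overlap, 3 had an unadjusted p-value under 0.05, and the median was 0.29, from Brms1l at -0.36 to Sin3b, a scaffold, at 1.03. The SIN3 median was -0.077 with median-of-ratios factors and 0.017 without the trends. Of 10 CoREST subunits 7 were higher without overlap and 2 had an unadjusted p-value under 0.05, with a median of 0.55 that was 0.19 with median-of-ratios factors and 0.22 without the trends. The range went from Zmym2 at -0.26 to Rcor2, a corepressor, at 1.88, with 3.55 and 2.89 TPM in +/+ and 11.41 and 18.45 TPM in Chd5-/- NSCs (adjusted p = 0.120). The 3 MiDAC genes had a median of 0.70, from Elmsan1 at 0.38 to Dnttip1 at 1.38, 1 of them at an unadjusted p-value under 0.05, and 0.15 without the trends. CAF-1, HAT1, NURF and MuvB, which use RBBP4 or RBBP7, had 3 of 10 genes higher and 3 lower without overlap, 1 at an unadjusted p-value under 0.05, and a median of 0.079, from Hat1, the partner of RBBP7 in histone acetylation, at -0.50 to Lin37 at 1.47. This median was negative under all 3 scalings (-0.26, -0.42 and -0.13), without the trends (-0.12), and without +/+ replicate 2 (-0.22), Chd5-/- replicate 1 (-0.083) or Chd5-/- replicate 2 (-0.091). None of the genes in these lists passed the adjusted threshold of limma.

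Other deacetylases and the opposing acetyltransferases completed the lists, again beside 46.3% of all rows higher without overlap and 21.9% higher at an unadjusted p-value under 0.05. Of 9 further zinc-dependent deacetylases 7 were higher without overlap and 6 had an unadjusted p-value under 0.05, with 0 passing the adjusted threshold (median difference 0.98). Hdac5, a class II enzyme, was at 4.35 and 2.84 TPM in +/+ and 12.61 and 20.92 TPM in Chd5-/- NSCs, a difference of 1.93 (limma adjusted p = 0.120), and Hdac8 was lowest at -0.038. The median of this list was 0.40 without the trends. Of 9 histone acetyltransferases 8 were higher and 1 lower without overlap, 3 with an unadjusted p-value under 0.05 (median 0.62, from Kat2b at -0.32 to Kat8 at 0.93), and this median was 0.26 with median-of-ratios factors, 0.19 with quantile normalization and 0.026 without the trends. The median of all rows was 0.34 as deposited, 0.0052 with median-of-ratios factors, -0.054 with quantile normalization and -0.015 without the trends.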

How the data were processed

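Per the labels, polyadenylated RNA of 4 NSC cultures was sequenced from stranded libraries. The authors deposited TPM values, 1 column per sample. The submitters' processing notes name Bowtie2 2.2.3, RSEM 1.2.20 and mm10, without their roles. Annotation, filters and strand setting are not given in the sources used here. TPM keeps no read numbers, so the depth is unknown and intervals for counting error were not computed. Nothing says whether replicates shared a litter or day. The limma p-values set each difference against the spread between these samples, with the variance of each row drawn toward a trend over all rows tested.

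Values were used as deposited. Testing used limma 3.58.1 under R 4.3.3 and was limited to rows whose mean reached 1 TPM (log2(TPM + 1), eBayes with a trend, two-sided, no covariates), with Benjamini-Hochberg adjustment over all rows tested. Shares were compared by exact permutation. Where a gene had several rows the most abundant was used. GC content and length of the longest coding transcript and positions came from GENCODE M21 (GRCm38), found for 96.2% of rows tested. Trends were removed per sample by loess (span 0.5) on both. Scripts were tested on simulated data. All members, the CHD genes, Mbd2 and the extremes of each list were named, and 1 list is not reported here. Members and lists were chosen with earlier results of these data known. Alternatives are given at the end. Python 3.11.15 (pandas 2.3.3, numpy 2.4.6, scipy 1.17.1) served for tables and matplotlib 3.10.9 for figures.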

Additional observations from a re-analysis of the deposited data

How the results depend on the processing

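Over all rows, limma called 7 at an adjusted p-value of 0.05, and 4 with a pseudocount of 0.1, 0 with no minimum TPM (3089 higher and 384 lower at an unadjusted p-value under 0.05), 1 after quantile normalization, 3 with GC and length trends removed, and between 0 and 1247 with 1 sample left out (0 without either +/+ sample, 1247 without Chd5-/- replicate 1 and 1086 without Chd5-/- replicate 2). A sample left alone in its genotype was assumed to vary like the others. Of the members, 0 were called under every alternative but the one without Chd5-/- replicate 2, where Mbd3 was (range 0 to 1). The 4 members higher at an unadjusted p-value under 0.05 became 1 (Mbd3) under each of the 3 scalings (median-of-ratios, quantile, rescaling without the most abundant rows), 2 with GC and length trends removed, and 1 to 2 with a sample left out. The rows higher over the whole table went with this from 2748 to 1509, 1103 and 1856 under the scalings, 599 without the trends and between 723 and 3493 with a sample left out. The number of members lower went from 0 to between 0 and 1 (Rbbp7, without Chd5-/- replicate 1). The members' median of 0.49 became 0.13, 0.22 and 0.27 under these scalings in that order and 0.0076 without the trends, and it was 0.43 to 0.59 with a sample left out. The cause was not tested.

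Mta1 turned to -0.14, Mta2 to -0.20 and Gatad2a to -0.22 with the trends removed, with or without the block below. Gatad2a was -0.092 after quantile normalization. Rbbp4 turned to -0.33, -0.046 and -0.20 under the 3 scalings, and to -0.083 without +/+ replicate 2 and -0.014 without Chd5-/- replicate 2, in a range from -0.083 to 0.16 with a sample left out. Rbbp7 ranged from -0.75 without Chd5-/- replicate 1 to 0.12 without Chd5-/- replicate 2. With the trends removed, the genotype difference in share went from 8.31 to 2.82 percentage points for Hdac1, from -7.27 to -14.8 for Gatad2a, from 3.71 to -0.028 for Mta1 and from -5.51 to -2.78 for Mta2.

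Same-numbered samples share only a number, and the correlation of their deviations from the genotype means was -0.15 over the rows tested. With the replicate number as a block, 0 rows and 0 members passed the adjusted threshold and 2 members (Mbd3 and Gatad2b) an unadjusted one. With the trends removed as well these were 0, 0 and 1, with a members' median of 0.0076. With the numbers crossed, an alternative added after seeing the data, 5 rows, 0 members and 3 members did.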
